A study of Mus musculus with 8 samples.

Results

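Tcf7, Lef1, Ccr7, S1pr1, Klf2, Foxo1, Bach2, Id3, and Satb1 are 9 genes that resting T cells and stem-like memory T cells are known to use, and they were followed here among the 20170 genes of a single-cell RNA-seq count table of mouse splenic T cells. They were chosen by name. All 9 were in the table, and all 9 passed the filter on low counts in both CD4 and CD8 cells. The table holds 12846 cells of 8 libraries, 2 for each of 4 groups. WT cells came from C57BL/6 (B6) mice, and SDHA-KO cells came from Sdha fl/fl CD4-Cre mice, in which a Cre driven by the Cd4 promoter deletes Sdha, the gene of the catalytic flavoprotein of mitochondrial complex II, in T cells that have passed through the CD4-expressing stage in the thymus. Mice were 8 to 12 weeks old. In every group, T cells were isolated from spleen with magnetic beads, cultured, and freed of dead cells. Unstimulated cells were cultured alone, and stimulated cells were cultured for 48 hours with soluble antibodies to CD3 (5 μg/mL) and CD28 (2.5 μg/mL), which imitate antigen and costimulation. The sample records do not say whether the 2 libraries of a group came from different mice, so p values measure the spread between these libraries, which may be technical.

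Resting T cells circulate through lymphoid organs. S1PR1, a receptor for sphingosine 1-phosphate, lets them leave, CCR7 guides them into lymph nodes, and the zinc finger factor KLF2 drives S1pr1 and holds cells in quiescence. FOXO1, a forkhead factor that leaves the nucleus when PI3K and AKT signal, drives Klf2, Ccr7, and Il7r, and after stimulation the egress genes are switched off while cells divide. TCF1 (encoded by Tcf7) and LEF1 are related HMG box factors of naive and stem-like memory cells, BACH2 is a repressor that restrains effector programs, ID3 blocks E proteins, and SATB1 organizes chromatin in T cells.

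In the gene annotation of build GRCm38, S1pr1 (ENSMUSG00000045092) lies at chr3:115710433-115715072 on the minus strand, Klf2 (ENSMUSG00000055148) at chr8:72319033-72321656 on the plus strand, and Tcf7 (ENSMUSG00000000782) at chr11:52252371-52283014 on the minus strand. Klf2 and Tcf7 are the members whose levels moved most alike over the libraries, as given below, and their promoter stretches follow, from the RefSeq promoter table of build GRCm38.p6. The Klf2 stretch (chr8:72318812-72319032, plus strand) ends at the base before the gene, and the Tcf7 stretch (chr11:52282596-52282711, minus strand) lies inside the gene, before an internal start of Tcf7. Each is written 5′ to 3′ on the strand of its gene, with capitals marking the letters TAAATTTA, the core of a MEF2 motif, in Klf2 and GGGTGTGG, the reverse strand of the KLF motif CCACACCC, in Tcf7.
Klf2: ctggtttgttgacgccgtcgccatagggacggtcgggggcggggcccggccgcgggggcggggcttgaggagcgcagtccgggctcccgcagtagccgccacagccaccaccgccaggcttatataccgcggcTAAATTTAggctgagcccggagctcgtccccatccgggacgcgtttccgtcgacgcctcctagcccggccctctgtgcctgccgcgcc
Tcf7: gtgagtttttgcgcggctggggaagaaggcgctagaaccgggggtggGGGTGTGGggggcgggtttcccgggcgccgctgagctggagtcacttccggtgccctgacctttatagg
Of the 9 members, 7 had promoters in the table, in 15 windows (Ccr7 and S1pr1 were not matched). On either strand, in the 250 bases before a start, the MEF2 letters occurred in 165 of 32851 windows of all genes (0.502%) and the KLF letters in 3.20%. Among the 15 windows of the members, the MEF2 letters occurred in 1 (Klf2) and the KLF letters in 1 (Tcf7). Whether either motif is used was not tested. GTAAACA, a forkhead motif, and CTTTGAT, a TCF/LEF motif, occur in 3.17% and 3.21% of windows and in 0 of the 15 windows of the members.

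The libraries held 10947009 to 51398728 unique molecular identifiers (UMIs), which each mark a captured mRNA molecule. UMIs were summed per library within the CD4 and the CD8 class of the authors' cell table, and levels are counts per 1e6 UMIs (CPM) scaled with edgeR's TMM factors. The targeted gene, Sdha, was lower in every SDHA-KO sum than in every WT sum, at 28.6 to 46.7 against 77.4 to 92.5 plain CPM in CD4 cells and 34.5 to 60.0 against 76.7 to 89.9 in CD8 cells, although a 3′ count cannot tell an intact transcript from a recombined one. T cell markers were detected throughout (7 of 7 in each class and group). Summed markers of γδ T cells (6 genes, 5 or 6 of them detected in each group) were higher in SDHA-KO than in WT cells of the CD8 class, at 233.5 and 174 against 28.8 and 26.3 CPM unstimulated and 254 and 261 against 18.1 and 21.2 CPM stimulated. B cell markers stood apart in the CD8 class of stimulated SDHA-KO replicate 1 (345 CPM, against 50.0 to 64.1 in the other stimulated libraries). The median percentage of UMIs from mitochondrially encoded genes was 14.9% to 19.0% in stimulated WT cells of either class, 1.77% to 3.43% in stimulated SDHA-KO cells, and 3.32% to 4.24% in unstimulated cells. A cell barcode shared by 2 libraries was found 23 times (46 cells). Because of these differences, results on SDHA-KO are also given in cells chosen by coreceptor UMIs (Cd4 without Cd8a, Cd8b1, or Trdc, or a Cd8 gene without Cd4 or Trdc) and in cells with under 10% mitochondrial UMIs.

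The first question was how the 9 genes changed after 48 hours of stimulation. Falls and rises here are in shares of UMIs, not in molecules per cell. Over libraries and classes, median UMIs per cell were 7055 to 10446 in unstimulated and 13152 to 30662 in stimulated cells. A lower share therefore need not mean fewer molecules per cell. In WT CD4 cells chosen by coreceptor UMIs, 522 and 540 unstimulated cells were set against 497 and 558 stimulated cells. There, UMIs of S1pr1 went from 1280 and 1519 to 90 and 74, and those of Klf2 from 2623 and 2943 to 206 and 200. UMIs of Lef1, whose share was lower after stimulation, went from 3155 and 3898 to 4539 and 5109. The egress pair S1pr1 and Klf2 nearly disappeared in both classes and both genotypes, while Ccr7 rose in CD4 cells. In WT CD4 cells, S1pr1 stood at 362 and 381 CPM in the 2 unstimulated libraries and at 5.55 and 4.09 CPM in the 2 stimulated libraries. Every stimulated library lay far under every unstimulated library, a 77.4-fold difference (log2 fold change -6.27 ± 0.17 SE, with adjusted p = 1.91e-10 by edgeR's quasi-likelihood test with Benjamini-Hochberg adjustment, the test behind every adjusted p below). In WT CD8 cells it went from 308 and 316 to 3.24 and 4.67 CPM (-6.29 ± 0.19, adjusted p = 4.58e-10). The stimulated levels rest on few molecules, 152 and 126 UMIs per library in WT CD4 cells and 80 and 120 in WT CD8 cells. In SDHA-KO cells S1pr1 fell likewise, with log2 fold changes of -6.02 ± 0.16 in CD4 cells and -6.44 ± 0.20 in CD8 cells.

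Klf2, the factor upstream of S1pr1, stood at 749 and 782 CPM in unstimulated and 13.7 and 13.3 CPM in stimulated WT CD4 cells. It fell 56.5-fold there (-5.82 ± 0.15, adjusted p = 1.53e-10) and 107-fold in WT CD8 cells, where the libraries held 843 and 892 CPM before and 7.70 and 8.48 CPM after stimulation. In SDHA-KO CD4 cells the fall was 19.4-fold, from 781 and 727 to 45.2 and 32.6 CPM (-4.28 ± 0.13). Klf2 thus ended at a higher level in stimulated SDHA-KO CD4 cells than in stimulated WT CD4 cells, with no overlap between the libraries. In SDHA-KO CD8 cells it fell by 6.71 on the log2 scale. Ccr7, the homing receptor, went the other way in CD4 cells, from 219 and 228 to 319 and 331 CPM in WT (0.54 ± 0.10, adjusted p = 4.55e-04) and from 232 and 217 to 365 and 449.7 CPM in SDHA-KO (0.86 ± 0.10, adjusted p = 9.16e-06). In CD8 cells neither change of Ccr7 passed the test (0.22 ± 0.12, adjusted p = 0.12 in WT and -0.22 ± 0.12, adjusted p = 0.13 in SDHA-KO).

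Among the transcription factors, Tcf7 and Lef1 fell in all 4 comparisons of stimulated with unstimulated cells. Tcf7 went from 332 and 356 to 50.0 and 53.9 CPM in WT CD4 cells (-2.73 ± 0.085) and from 313 and 324 to 43.0 and 36.5 CPM in WT CD8 cells (-3.00 ± 0.10). Lef1 went from 884 and 943 to 280.2 and 285 CPM in WT CD4 cells (-1.69 ± 0.087) and from 881 and 904 to 162 and 152 CPM in WT CD8 cells (-2.51 ± 0.10). Foxo1, whose product is controlled largely by its place in the cell, fell less, by 1.41 and 0.98 on the log2 scale in WT CD4 and CD8 cells. The repressor Bach2 kept a level of 567 and 547 CPM in stimulated WT CD4 cells, against 576 and 622 CPM before (-0.11 ± 0.084, adjusted p = 0.28), and fell in WT CD8 cells (-0.53 ± 0.11, adjusted p = 0.0011). In SDHA-KO CD4 cells Bach2 rose (0.46 ± 0.083, adjusted p = 4.30e-04). Id3 fell in WT CD8 cells, from 84.3 and 92.8 to 26.5 and 24.1 CPM (-1.81 ± 0.16), and stood at 106 and 102 CPM before and 76.4 and 72.8 CPM after stimulation in WT CD4 cells (-0.48 ± 0.22, adjusted p = 0.078). Satb1 fell in WT CD4 cells (-0.64 ± 0.13, adjusted p = 0.0011) and WT CD8 cells (-0.45 ± 0.14, adjusted p = 0.013), while in SDHA-KO CD4 cells it stood at 747 and 829 CPM before and 939 and 736 CPM after stimulation (0.088 ± 0.13, adjusted p = 0.56).

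Together, 6 members were lower and 1 higher after stimulation in WT CD4 cells, where 66.3% of all tested genes were called (36.2% higher and 30.1% lower), and 8 were lower in WT CD8 cells, where 65.7% were called (35.5% higher and 30.3% lower). In SDHA-KO CD4 cells 6 were lower and 2 higher (69.8% of all genes called, 36.6% higher and 33.2% lower), and in SDHA-KO CD8 cells 7 were lower (68.2%, 37.2% higher and 30.9% lower). The members' median log2 fold change was -1.41 in CD4 and -1.81 in CD8 cells of WT, and -1.28 and -1.79 in SDHA-KO, while the median of all tested genes lay between 0.035 and 0.10. Of the genes called in WT, 54.6% (CD4) and 54.0% (CD8) were higher, and in SDHA-KO 52.4% and 54.6%. Scaling by library size alone moved these shares to 65.4%, 75.6%, 62.8%, and 66.3% and the medians of all genes to between 0.26 and 0.57, and it left Satb1 in WT CD8 cells at 0.035. In cells chosen by coreceptor UMIs, Ccr7 and Bach2 rose in SDHA-KO CD8 cells (log2 fold changes 0.50 and 0.28, adjusted p = 3.77e-04 and 0.020). Over the whole class Bach2 fell in SDHA-KO CD8 cells (-0.37 ± 0.11, adjusted p = 0.0093), a call that was lost without stimulated SDHA-KO replicate 1 (-0.25, adjusted p = 0.066) or unstimulated SDHA-KO replicate 2 (-0.25, adjusted p = 0.14). The call of Satb1 in WT CD8 cells was lost without stimulated WT replicate 1 (-0.39, adjusted p = 0.068), unstimulated WT replicate 1 (-0.42, adjusted p = 0.083), or unstimulated WT replicate 2 (-0.43, adjusted p = 0.082), and that of Id3 in SDHA-KO CD4 cells without unstimulated SDHA-KO replicate 1 (-0.74, adjusted p = 0.053).

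**Figure D1:**
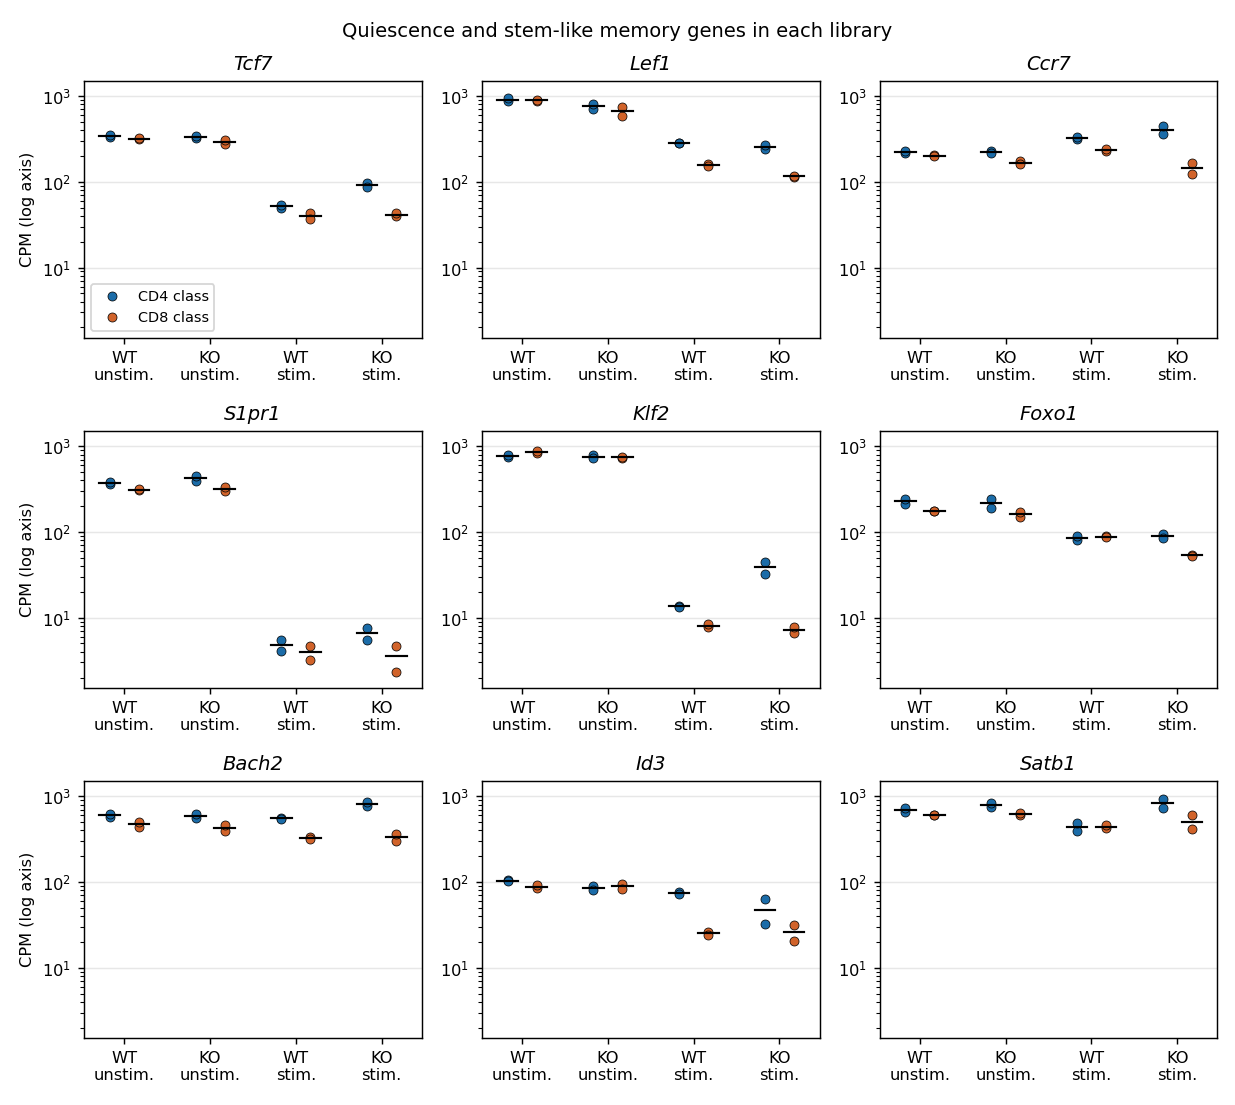
Levels of the 9 genes (TMM-scaled CPM, log axis) in the CD4 class and the CD8 class, 1 point per library and a bar at the mean of the 2 libraries of each of 4 groups (KO is SDHA-KO). S1pr1 falls from 300.1 to 454 CPM in unstimulated libraries to 2.35 to 7.61 CPM in stimulated ones, and stimulated SDHA-KO libraries lie above stimulated WT libraries for Klf2 in the CD4 class and not in the CD8 class.

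Genes known to work with the members moved in the same comparison as follows. Of 22 further quiescence genes, 19 were lower and 1 higher in stimulated WT CD4 cells, and the same numbers held in WT CD8 cells (medians -1.84 and -2.09). The largest fall was that of Klf3, a relative of Klf2 (-4.17 ± 0.11 in CD4 and -5.39 ± 0.14 in CD8 cells), and the gene that rose was Bcl2, an inhibitor of apoptosis (0.65 ± 0.15 and 1.09 ± 0.12). In SDHA-KO cells 19 of 22 were lower in CD4 and 21 of 22 in CD8 cells, and the others were not called. Of 12 egress and homing genes, 10 were tested, and 7 were lower in WT CD4 and 8 in WT CD8 cells. Among these, Cxcr3, a chemokine receptor of effector cells, fell most (-3.79 ± 0.20 in CD4 and -2.39 ± 0.28 in CD8 cells). Of 15 genes that work with TCF/LEF or E proteins, 9 were lower and 4 higher in WT CD4 and 10 and 3 in WT CD8 cells. Axin2, a known target of TCF/LEF, fell most (-3.26 ± 0.19 and -2.89 ± 0.29). Of the effector counterparts, 11 of 15 were higher and 2 lower in WT CD4 cells, and 11 of 14 tested were higher in WT CD8 cells. Gzmb, which encodes the cytotoxic protease granzyme B, rose most in both, from 0.476 ± 0.461 to 392 ± 102 CPM in CD4 and from 0.732 ± 0.227 to 3615 ± 586 CPM in CD8 cells (mean ± SD, n = 2 libraries).

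The next question was what loss of SDHA changed in unstimulated cells. None of the 9 members was called by edgeR in either class, where 1.1% (CD4) and 0.947% (CD8) of all tested genes were called. At an unadjusted p under 0.05, 1 member in CD4 (Lef1) and 2 in CD8 cells (Lef1 and Klf2) were lower in SDHA-KO, and DESeq2 called Lef1 in both classes (-0.30, adjusted p = 0.026 in CD4 and -0.42, adjusted p = 0.0072 in CD8 cells). Lef1 stood at 884 and 943 CPM in WT and 705 and 811 CPM in SDHA-KO CD4 cells (-0.27 ± 0.085, adjusted p = 0.16). Its levels in CD8 cells were 881 and 904 CPM in WT and 581 and 745 CPM in SDHA-KO (-0.43 ± 0.10, adjusted p = 0.083). The SDHA-KO libraries lay under the WT libraries in both classes, and the 2 SDHA-KO libraries differed more from each other than the 2 WT libraries. Without unstimulated SDHA-KO replicate 2, the higher of these, edgeR called Lef1 in CD8 cells (-0.60, adjusted p = 0.035). Of all genes called in CD8 cells 29.8% were higher in SDHA-KO, and 73.0% were when libraries were scaled by size alone, which moved the median of all genes from 0 to 0.12. The other members had log2 fold changes between -0.28 (Id3) and 0.19 (Satb1) in CD4 cells and between -0.27 (Ccr7) and 0.052 (Satb1) in CD8 cells. Among the quiescence partners, Dapl1 fell in SDHA-KO cells (-1.91 ± 0.18 in CD4 and -1.97 ± 0.11 in CD8 cells), and Igfbp4, which encodes a binding protein of insulin-like growth factors and is a marker of naive cells, rose (0.92 ± 0.13 and 0.95 ± 0.11). Of the 22 genes of that list, 2 were higher and 2 lower in CD4 and 2 higher and 1 lower in CD8 cells.

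After stimulation, SDHA-KO CD4 cells held more Klf2, Satb1, Tcf7, Bach2, and Ccr7 than WT CD4 cells, and less Id3. The egress factor Klf2 stood at 13.7 and 13.3 CPM in WT libraries and 45.2 and 32.6 CPM in SDHA-KO libraries. It was 2.86-fold higher in SDHA-KO (1.52 ± 0.13, adjusted p = 1.05e-05), although both groups stayed far under the unstimulated level. Its target S1pr1 stood at 5.55 and 4.09 CPM in WT and 7.61 and 5.49 CPM in SDHA-KO, with overlapping libraries (0.44 ± 0.18, adjusted p = 0.074). S1pr1 passed the test with DESeq2 (0.45, adjusted p = 0.017) and in cells with under 10% mitochondrial UMIs (0.63, edgeR adjusted p = 0.031). Ccr7 stood at 319 and 331 CPM in WT and 365 and 449.7 CPM in SDHA-KO (0.33 ± 0.093, adjusted p = 0.016). Its call was lost without SDHA-KO replicate 2 (0.18, adjusted p = 0.11), without WT replicate 1 (0.31, adjusted p = 0.088), and in cells thinned to 5000 UMIs (0.13, adjusted p = 0.26).

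Of the transcription factors, Tcf7 stood at 50.0 and 53.9 CPM in stimulated WT and 96.2 and 86.5 CPM in stimulated SDHA-KO CD4 cells (0.81 ± 0.081, adjusted p = 2.33e-05). Satb1 stood at 392 and 491 CPM in WT and 939 and 736 CPM in SDHA-KO (0.92 ± 0.13, adjusted p = 2.20e-04). Bach2 stood at 567 and 547 CPM in WT and 771 and 863 CPM in SDHA-KO (0.55 ± 0.083, adjusted p = 3.41e-04). For these genes every SDHA-KO library lay above every WT library. Id3 stood at 76.4 and 72.8 CPM in WT and 32.4 and 63.4 CPM in SDHA-KO (-0.63 ± 0.21, adjusted p = 0.033), and SDHA-KO replicate 1 was the low library. Without it the log2 fold change of Id3 was -0.22 (adjusted p = 0.069), and the call was lost in 7 of 8 such omissions and with DESeq2 (adjusted p = 0.15). Lef1 and Foxo1 did not pass (-0.15 ± 0.085, adjusted p = 0.18, and 0.065 ± 0.11, adjusted p = 0.68). In all, 5 members were higher and 1 lower, where 43.2% of all tested genes were called (22.7% higher and 20.5% lower). The members' median was 0.44, against -0.00094 over all genes.

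The SDHA-KO and WT cells also differed in mitochondrial percentage, and in the shares of the authors' subset labels, which are given below. Summed γδ markers were 5.42 and 6.22 CPM in stimulated WT and 21.4 and 16.2 CPM in stimulated SDHA-KO cells of the CD4 class, and their part in the result was not tested beyond the choice by coreceptor UMIs. Cells with under 10% mitochondrial UMIs were 86.9% and 90.0% of stimulated SDHA-KO CD4 cells and 39.1% and 41.0% of stimulated WT CD4 cells. Within such cells the log2 fold changes were 1.29 for Klf2, 1.10 for Satb1, 0.79 for Bach2, 0.59 for Tcf7, and -1.01 for Id3, all called by edgeR, as were 32.8% of all genes. The values for Satb1, Bach2, and Id3 were thus farther from 0 than over all CD4 cells, and those of Klf2 and Tcf7 were nearer. In CD4 cells chosen by coreceptor UMIs, Klf2 was 1.69, Satb1 0.93, Tcf7 0.85, and Bach2 0.57 on the log2 scale, and the same 6 members were called, where 41.3% of all genes were.

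**Figure D2:**
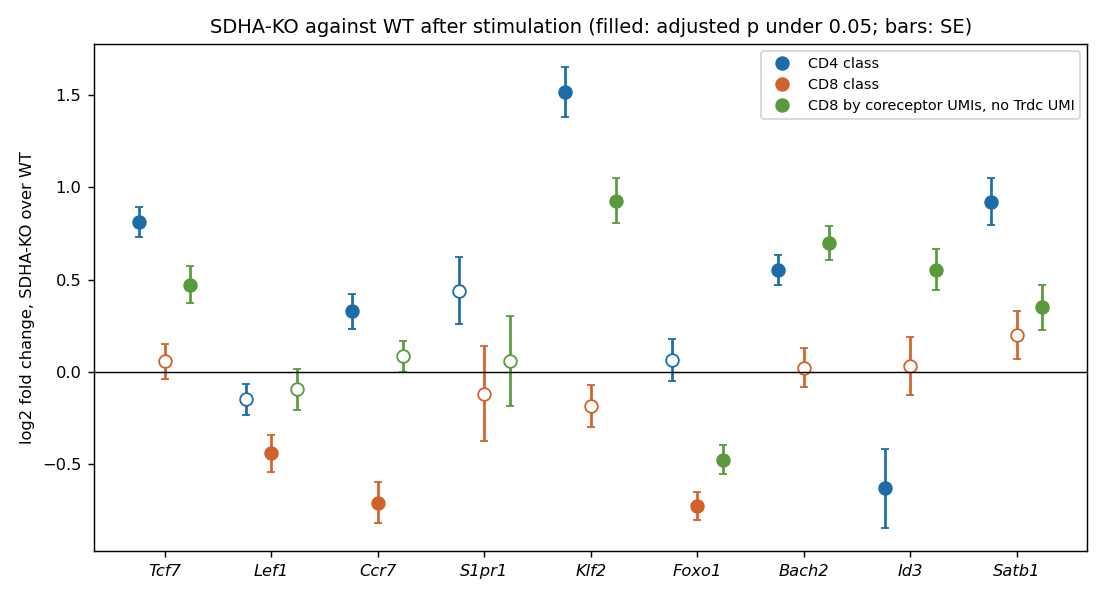
Log2 fold change of SDHA-KO over WT in stimulated cells for the 9 genes in the CD4 class, the CD8 class, and CD8 cells chosen by coreceptor UMIs, with bars of 1 SE and filled points for calls (edgeR adjusted p under 0.05). In CD4 cells 5 members are called above 0 and Id3 under 0, and among CD8 cells Klf2 moves from -0.19 in the class to 0.93 by coreceptor UMIs.

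In stimulated CD8 cells the result depended on which cells were counted. Over the CD8 class, Lef1, Ccr7, and Foxo1 were lower in SDHA-KO, where 50.4% of all tested genes were called (26.8% higher and 23.5% lower). Foxo1 stood at 89.7 and 87.2 CPM in WT and 54.2 and 52.5 CPM in SDHA-KO (-0.73 ± 0.078, adjusted p = 2.34e-05). Ccr7 stood at 228 and 243 CPM in WT and 123 and 165 CPM in SDHA-KO (-0.71 ± 0.11, adjusted p = 3.32e-04). Lef1 stood at 162 and 152 CPM in WT and 115 and 116 CPM in SDHA-KO (-0.44 ± 0.10, adjusted p = 0.0034). In each of the 3, both SDHA-KO libraries lay under both WT libraries. The other 6 had log2 fold changes between -0.19 (Klf2) and 0.20 (Satb1), and the members' median was -0.12, against -0.0096 over all genes. Without SDHA-KO replicate 1, the library with the high B cell markers, 5 members were called, with S1pr1 lower (-0.76, adjusted p = 0.038) and Id3 higher (0.31, adjusted p = 0.0497) beside the 3. The γδ markers given above moved with this comparison. Trdc, the constant gene of the γδ receptor, stood at 7.74 and 10.9 CPM in the WT libraries and 124 and 132 CPM in the SDHA-KO libraries of the CD8 class, and the part of these cells in the class result was not tested.

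Among cells with a Cd8a or Cd8b1 UMI and neither Cd4 nor Trdc UMIs (798 and 790 cells of stimulated WT, and 245 and 213 of stimulated SDHA-KO), summed γδ markers were 3.64 and 2.23 CPM in WT and 13.4 and 6.80 CPM in SDHA-KO, with Trdv4 at 0 beside Trdc. There 6 members were called, where 49.4% of all genes were called. Klf2 stood at 9.05 and 10.5 CPM in WT and 17.1 and 20.2 CPM in SDHA-KO (0.93, edgeR adjusted p = 3.65e-05). Bach2 stood at 353 and 347 CPM in WT and 525 and 604 CPM in SDHA-KO (0.70, adjusted p = 4.28e-05). Tcf7 stood at 44.4 and 40.7 CPM in WT and 53.9 and 63.8 CPM in SDHA-KO (0.47, adjusted p = 0.0015). All 3 were higher in SDHA-KO without overlap. Id3 (0.55) and Satb1 (0.35) were also called higher, and Foxo1 lower (-0.48, adjusted p = 2.17e-04). Lef1 (-0.10, adjusted p = 0.50) and Ccr7 (0.083, adjusted p = 0.44) were no longer called. Foxo1 was thus the member called lower in SDHA-KO both over the class and by coreceptor UMIs. With under 10% mitochondrial UMIs required as well (33.5% of all genes called), 5 were called: Bach2 (1.08), Klf2 (0.72), Satb1 (0.59), and Tcf7 (0.27) higher and Foxo1 (-0.29) lower. The choice needs a detected coreceptor UMI and does not draw the same share of cells from each group. Against the 798 and 790 WT and 245 and 213 SDHA-KO cells chosen, the stimulated CD8 class held 844 and 834, and 511 and 396. In that class Cd8b1 itself stood at 293 and 317 plain CPM in WT and 124 and 155 in SDHA-KO. The part of this unequal choice in the result was not tested. The choice also gave 522 and 540 CD4 cells in unstimulated WT, whose CD4 class held 933 and 951. It gave 916 and 1043 in unstimulated SDHA-KO, whose CD4 class held 1116 and 1315. In the unstimulated CD4 class Cd4 itself stood at 154.7 and 154.8 plain CPM in WT and 549.6 and 630.6 in SDHA-KO. After stimulation it stood at 98.2 and 101 in WT and 158 and 152 in SDHA-KO. The part of this difference in the choice was not tested.

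Whether the effect of SDHA loss differed between states was tested as a difference of the fold changes. In CD4 cells it differed for Klf2 (1.54 ± 0.18, adjusted p = 2.62e-04), Tcf7 (0.86 ± 0.11, adjusted p = 5.33e-04), Satb1 (0.73 ± 0.18, adjusted p = 0.016), and Bach2 (0.57 ± 0.12, adjusted p = 0.0066), each more positive after stimulation, where 21.4% of all genes were called. The call of Bach2 was lost without unstimulated WT replicate 2 (0.51, adjusted p = 0.050), and that of Satb1 without unstimulated SDHA-KO replicate 1 (0.66, adjusted p = 0.059) or WT replicate 2 (0.65, adjusted p = 0.088), so that 2 members were called without WT replicate 2. In the CD8 class it differed for Foxo1 alone (-0.61 ± 0.12, adjusted p = 0.0038, with 23.8% of all genes called), more negative after stimulation. Of the genes called there 56.9% were higher, and 32.7% when libraries were scaled by size alone, which moved the median of all genes to -0.21. Without stimulated SDHA-KO replicate 2, 3 members were called, Foxo1 with Ccr7 (-0.68) and Satb1 (0.38). By coreceptor UMIs, 5 members differed in CD8 cells (23.3% of all genes called), including Klf2 (1.11) and Bach2 (0.77), and with under 10% mitochondrial UMIs as well (12.4%) Klf2 (0.89) and Bach2 (1.15) were called while Foxo1 (-0.16, adjusted p = 0.43) did not.

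CD8 and CD4 cells were compared by coreceptor UMIs, with the library as a block. In unstimulated WT cells the 2 lineages were close for most members. Klf2 was higher in CD8 cells (0.27 ± 0.070), and Foxo1 (-0.34 ± 0.074) and Bach2 (-0.33 ± 0.050) were lower, where 13.3% of all genes were called. In stimulated WT cells, Lef1, Ccr7, Bach2, and Id3 were lower in CD8 cells (21.7% of all genes called, 10.9% lower). Id3 showed the largest distance, with 69.3 and 71.2 CPM in CD4 and 29.9 and 27.3 CPM in CD8 cells (-1.30 ± 0.11, adjusted p = 2.80e-07). Lef1 stood at 282 and 286 CPM in CD4 and 172 and 161 CPM in CD8 cells (-0.77 ± 0.059), and Bach2 at 577 and 522 CPM in CD4 and 353 and 347 CPM in CD8 cells (-0.65 ± 0.044). For these genes the CD8 libraries lay under the CD4 libraries. In SDHA-KO cells 5 members were lower in CD8 cells before stimulation (14% of all genes called, 6.58% lower) and 8 after it (26.9%, 14.4% lower), all but Id3. Without unstimulated WT replicate 2 the 3 calls in unstimulated WT became 1, and without unstimulated SDHA-KO replicate 2 the 5 calls in unstimulated SDHA-KO became 1.

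The effect of SDHA loss in stimulated cells differed between CD8 and CD4 cells for 6 members, where 10.3% of all genes were called. It was more positive in CD4 cells for Klf2 (difference -0.79 ± 0.19, adjusted p = 0.012), Satb1 (-0.60 ± 0.075, adjusted p = 8.46e-05), Foxo1 (-0.58 ± 0.10, adjusted p = 9.37e-04), Tcf7 (-0.40 ± 0.11, adjusted p = 0.029), and Ccr7 (-0.28 ± 0.070, adjusted p = 0.016), and more positive in CD8 cells for Id3 (1.18 ± 0.18, adjusted p = 4.69e-04). Id3 was called in opposite directions, -0.60 in CD4 and 0.55 in CD8 cells, with SDHA-KO CD4 replicate 1 again the low library (32.7 and 60.4 CPM, against 69.3 and 71.2 CPM in WT). Foxo1 stood at 0.083 in CD4 cells, which was not called (adjusted p = 0.61), and was lower in CD8 cells (-0.48). Without stimulated SDHA-KO replicate 1 the Id3 difference was 0.87 (edgeR adjusted p = 0.0090), and it ran from 0.87 to 1.54 over the libraries left out in turn. Without the same replicate the Klf2 difference was -0.44 and 3 members were called, and without stimulated WT replicate 2 it was -0.58, again without a call. Over the libraries left out in turn, the Tcf7 difference ran from -0.59 to -0.20 and the Ccr7 difference from -0.35 to -0.22. Both calls were lost without stimulated SDHA-KO replicate 1, and also in other omissions. With cells thinned to 5000 UMIs 2 members were called. In unstimulated cells 0 members differed by edgeR or DESeq2, and 1 (Klf2) at an unadjusted p under 0.05 (0.182% of all genes called), with Klf2 (-0.22 ± 0.10) and Ccr7 (-0.19 ± 0.093) farthest from 0.

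To ask whether the effect in stimulated cells held within subsets, UMIs were summed per library, class, and the authors' cluster. The authors named these clusters from marker genes that include Ccr7, Tcf7, Foxp3, Il7r, Cd44, and Itga4, so Ccr7 and Tcf7 had a part in the names, but SDHA-KO was compared with WT inside each. In the 8 stimulated CD4 clusters that could be compared, 37 of 72 pairs of member and cluster were called, 30 higher and 7 lower in SDHA-KO, while 8.47% to 28.3% of all genes were called per cluster. The chromatin organizer Satb1 was higher in 8 of 8 clusters (log2 fold changes from 0.76 to 1.29), Bach2 in 6, and Klf2, Ccr7, and Tcf7 in 4, 4, and 3. Klf2 was above 0 in all 8 (0.32 to 1.63). Id3 was lower in 4, and Lef1 was higher in 3 and lower in 2. In the stimulated CD8 clusters, 13 of 34 pairs were called, 12 of them lower and 1 higher (5.63% to 32.6% of all genes called per cluster). The lower ones were mostly Lef1 and Ccr7 (3 of 4 clusters each) and Foxo1 and Bach2 (2 each), and Satb1 was above 0 in 4 of 4 clusters (0.24 to 0.35) without a call. Without stimulated SDHA-KO replicate 2, 20 pairs were called in CD8 clusters. The CD8 clusters hold the cells with γδ markers, and no coreceptor condition was set here.

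With clusters of a label joined, a grouping chosen after the data had been seen, CD4 Tem cells gave log2 fold changes of 1.29 for Klf2, 1.16 for Satb1, 0.87 for Bach2, 0.60 for Tcf7, and -1.02 for Id3, all called by edgeR (26.5% of all genes called). In CD4 Tem cells with under 10% mitochondrial UMIs they were 1.29, 1.16, 0.86, 0.60, and -1.03 in the same order. In CD4 Tcm cells Klf2 (0.94), Satb1 (1.10), Tcf7 (0.84), Bach2 (0.56), and Ccr7 (0.56) were called (25.1%), of which Klf2 (1.31) and Satb1 (0.63) were also called under 10% mitochondrial UMIs. In CD8 Tem cells Bach2 was higher (0.52) and Foxo1 (-0.70), Ccr7 (-0.62), Klf2 (-0.49), and Lef1 (-0.35) lower (33.4%). Within Tem2, the CD8 Tem cluster that could be compared, Bach2 was instead called lower (-0.69 in cells with under 10% mitochondrial UMIs). The clusters joined differed between genotypes. Bach2 stood at a mean of 111 plain CPM in Tem2 and 1078 in Tem6 of SDHA-KO, against 174 in Tem2 and 300 in Tem3 of WT. In CD8 Tcm cells 5 were lower (31.1% of all genes called, 15.2% lower), Ccr7 most (-1.03). In CD8 Tem cells with under 10% mitochondrial UMIs the same 5 were called, with Bach2 at 0.55. In CD8 Tcm cells with under 10% mitochondrial UMIs Ccr7 (-0.36, edgeR adjusted p = 0.24), Bach2 (-0.25, against -0.33 in all Tcm cells), and Id3 (0.38, against -0.87) were not called. Foxo1 (-0.73) and Lef1 (-0.68) were lower there, and Tcf7 was higher (1.01, edgeR adjusted p = 0.031). Tcm cells under this limit were few in WT. They were 5.74% and 6.73% of WT and 43.2% and 46.2% of SDHA-KO CD4 Tcm cells. In CD8 Tcm cells the shares were 4.32% and 4.89% in WT and 20.9% and 13.4% in SDHA-KO.

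**Figure D3:**
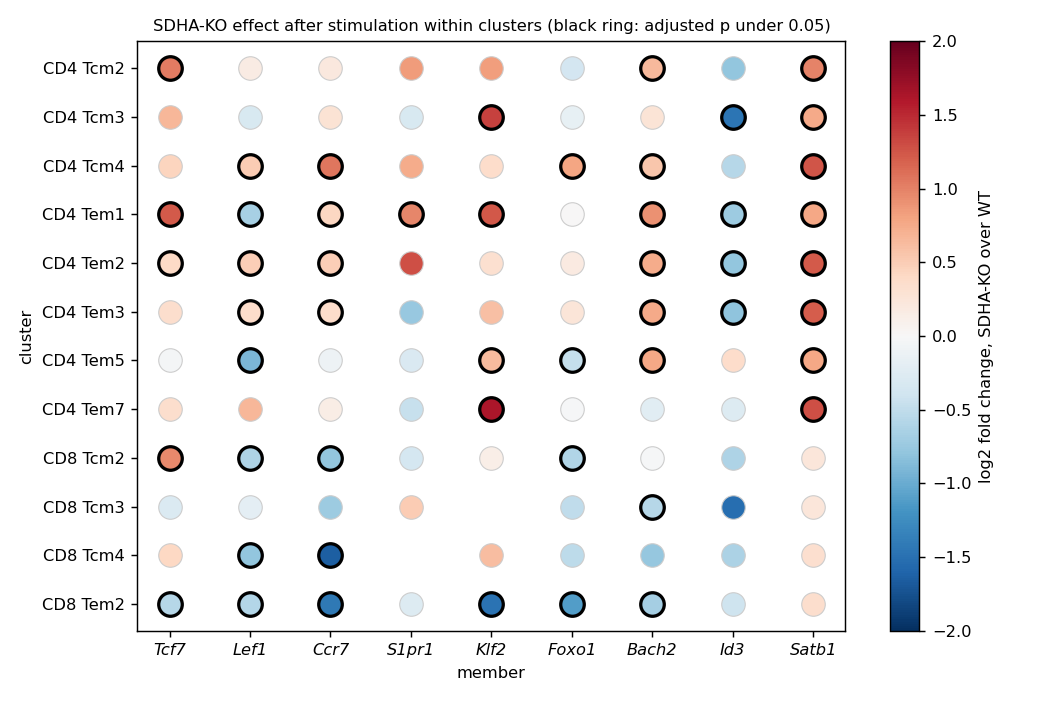
Log2 fold change of SDHA-KO over WT (color scale) for the 9 genes within each of the 8 CD4 and 4 CD8 clusters of stimulated cells, with black rings for calls (edgeR adjusted p under 0.05) and no mark where a gene was not tested. Satb1 lies between 0.76 and 1.29 and is ringed in all 8 CD4 clusters.

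In unstimulated clusters few pairs were called, 4 of 54 in CD4 (all lower, with 0.706% to 4.17% of all genes called per cluster) and 4 of 45 in CD8 cells (0.88% to 2.41%). In CD4 clusters the count was 7 without unstimulated SDHA-KO replicate 1 and 1 without WT replicate 2, and in CD8 clusters it was 2 without either of these libraries. Lef1 was lower in 3 naive CD4 clusters, Naive1 (-0.32), Naive2 (-0.37), and Naive4 (-0.62), and in 2 naive CD8 clusters, Naive2 (-0.56) and Naive4 (-0.54). It lay under 0 in all 6 CD4 and all 5 CD8 clusters that were compared. The remaining calls were of Id3, which was lower in the Tem1 cluster of CD4 cells (-1.49, adjusted p = 5.27e-04) and the Tcm1 cluster of CD8 cells (-0.84) and higher in the Naive3 cluster of CD8 cells (2.54, adjusted p = 0.012). In that Naive3 cluster Id3 had a mean of 8.68 plain CPM in WT and 58.6 in SDHA-KO. The WT value was the lowest of the WT naive CD8 clusters, of which Naive2 was highest (113). In CD4 Tem cells Id3 stood at 161 and 131 plain CPM in WT and 58.6 and 54.6 in SDHA-KO. In CD8 Tcm cells it stood at 144 and 135 in WT and 72.3 and 103 in SDHA-KO. With clusters of a label joined, edgeR called Lef1 lower in CD8 Naive cells (-0.39, adjusted p = 0.0033). It did not call Lef1 in CD4 Naive cells (-0.34, adjusted p = 0.067). Id3 was called lower in joined CD4 Tem cells (-1.47, edgeR adjusted p = 0.042) and not in CD8 Tcm cells (-0.83, edgeR adjusted p = 0.27). In joined CD8 Naive cells it was not called (0.24, edgeR adjusted p = 0.35).

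The levels per label are given as descriptions, because labels came from clusters of the same counts. In unstimulated CD4 cells, the Tem label held much less Lef1, Ccr7, Bach2, and Satb1 than the Naive label and a similar level of Klf2. In WT, Bach2 stood at 578 and 621 plain CPM in Naive and 107 and 135 in Tem cells. Ccr7 stood at 232 and 236 in Naive, 51.1 and 74.0 in Tem, and 91.3 and 71.8 in Treg cells. Klf2 stood at 701 and 745 in Naive and 700.1 and 654 in Tem cells, nearly side by side. Treg cells held the lowest Tcf7 (166 and 119 in WT, against 325 and 351 in Naive and 279 and 264 in Tem cells) and kept Bach2 (539.8 and 567). Their Id3 (232 and 144) was above that of Naive cells (74.6 and 84.7) and overlapped that of Tem cells. In unstimulated CD8 cells, which had Naive and Tcm labels, WT Tcm cells held less Ccr7 (81.8 and 73.6 against 188 and 179) and Lef1 (553 and 454 against 774 and 792), more Id3 (144 and 135 against 57.0 and 69.1), and slightly more Tcf7 (289 and 291 against 258 and 266).

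**Figure D4:**
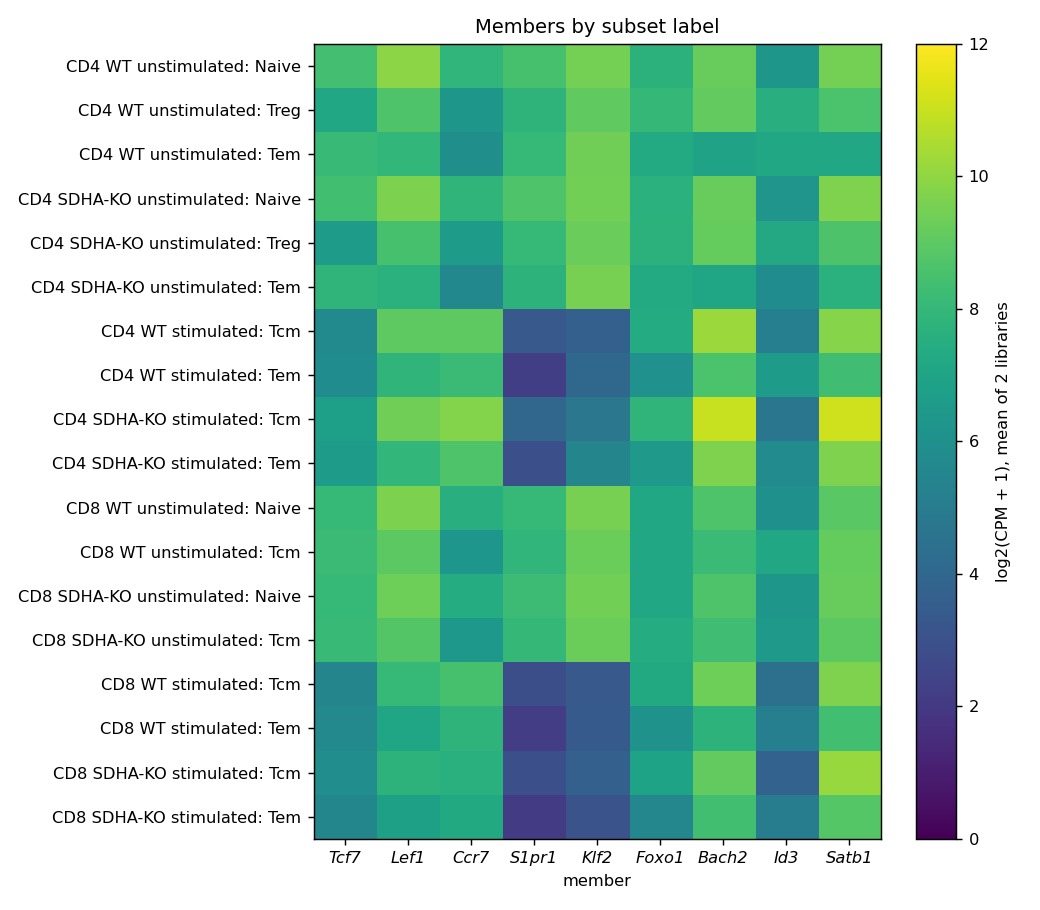
Color scale of log2(plain CPM + 1) of the 9 genes, from the mean of the 2 libraries, for each class, group, and label of the authors. Unstimulated CD4 Tem cells are darker than Naive cells for Bach2 and Ccr7, and stimulated Tcm and Tem cells of both classes are dark for S1pr1.

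After stimulation the authors' labels were Tcm and Tem only, and the question was how far these labels follow the 9 genes. Tcm cells were 62.9% and 61.4% of stimulated WT and 20.8% and 17.4% of stimulated SDHA-KO CD4 cells. In CD8 cells they were 76.8% and 71.1% of WT and 44.0% and 41.4% of SDHA-KO. Comparisons of SDHA-KO with WT over a class thus joined different mixes of labels. The sums also weight each cell by its UMIs, and Tem cells were deeper. In stimulated WT CD4 cells, median UMIs were 10849 and 10875 in Tcm and 60983 and 61520 in Tem cells. In SDHA-KO they were 6872 and 7418 against 28229 and 28380. Tem cells thus weigh more in a class level than their share of cells. The part of the mix was not tested apart from the comparisons within labels. In all 4 stimulated libraries and in both classes, 6 members were higher in cells labelled Tcm than in cells labelled Tem, namely Lef1, Ccr7, S1pr1, Foxo1, Bach2, and Satb1. Id3 was lower in Tcm cells in every library. Tcf7 did not separate the labels, and Klf2 was lower in CD4 Tcm cells in all 4 libraries and split in CD8 cells. In CD4 cells, in the order WT 1, WT 2, SDHA-KO 1, and SDHA-KO 2, Bach2 stood at 1173, 1192, 1864 and 2166 plain CPM in Tcm and 408, 368, 762 and 858 in Tem cells. The log2 ratio of Tcm to Tem was thus 1.29 to 1.69, with no overlap between labels. Tcf7 stood at 48.2, 56.2, 105 and 111 in Tcm and 56.3, 57.4, 105 and 92.7 in Tem cells (log2 ratios -0.22 to 0.25). Id3 stood at 36.5, 34.6, 17.4 and 32.8 in Tcm and 99.6, 91.7, 36.7 and 71.1 in Tem cells (-1.42 to -1.04). The other ratios in CD4 cells were 1.45 to 1.56 for Satb1, 1.32 to 1.46 for Foxo1, 1.15 to 1.49 for Lef1, 0.80 to 1.09 for Ccr7, 0.89 to 1.35 for S1pr1, and -0.99 to -0.23 for Klf2. In CD8 cells they were 1.24 to 1.45 for Satb1, 1.12 to 1.48 for Foxo1, 0.53 to 1.68 for Bach2, 0.92 to 1.00 for Lef1, 0.28 to 0.75 for Ccr7, 0.63 to 0.92 for S1pr1, -1.34 to -0.66 for Id3, -0.38 to 0.53 for Tcf7, and -0.058 to 0.96 for Klf2.

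A higher level in Tcm cells was common among genes at large. Of genes with at least 20 CPM, 61.0% in CD4 and 57.2% in CD8 cells were higher in Tcm in all 4 libraries, and the median log2 ratio was 0.60 and 0.47. So 6 of 9 members, or 5 of the 7 that were not used for naming, is close to the share among all genes. The naming genes Cd44, Itga4, and Il7r were also higher in Tcm cells of all libraries, including Cd44 (1.57 to 2.09 in CD4), which marks activated and memory cells, and Itga4 (1.48 to 1.63) and Il7r (1.28 to 1.86). The labels also differed in quality measures. Over libraries and classes, Tcm cells had median mitochondrial percentages of 11.1% to 21.8% and median depths of 6872 to 11488 UMIs, against 1.31% to 3.11% and 28229 to 65563 UMIs in Tem cells. In cells with under 10% mitochondrial UMIs, the ratios in CD4 cells stayed above 0 for Bach2 (1.48 to 2.34), Satb1 (1.57 to 2.46), Lef1 (1.52 to 1.90), and Ccr7 (0.89 to 1.24), and under 0 for Id3 (-2.16 to -0.97). Of genes with at least 20 CPM in these CD4 cells, 61.3% were higher in Tcm in all 4 libraries, with a median log2 ratio of 0.80. The lowest Ccr7 ratio was thus close to that median. Ratios of the other members, and of CD8 cells, are not given under this limit. The part of mitochondrial percentage in the labels was not tested.

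**Figure D5:**
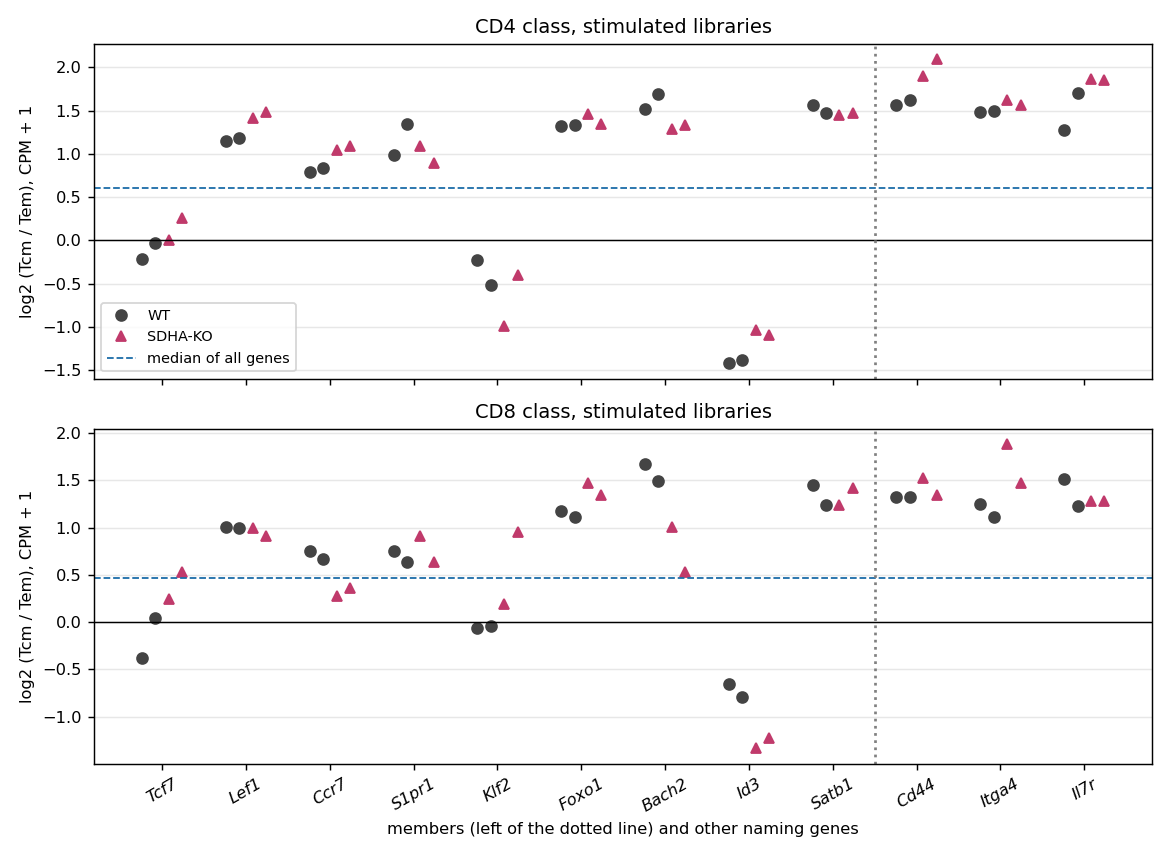
Log2 ratio (CPM + 1) of the level in Tcm-labelled to that in Tem-labelled cells for the members and 3 other naming genes, 1 point per stimulated library, with a dashed line at the median of all genes with at least 20 CPM (0.60 in CD4 and 0.47 in CD8 cells). Lef1, Ccr7, S1pr1, Foxo1, Bach2, and Satb1 lie above the dashed line in every library in CD4 cells. Tcf7 scatters around 0, and Id3 lies under 0 in every library.

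At the level of single cells, every cell with at least 5000 UMIs was thinned to 5000, and pairs of a Tcm and a Tem cell of the same library were compared, where 50% means no separation for a measure taken alone. Such shares were not computed over other genes, but of the genes at 20 CPM or more in these thinned cells 57.3% in CD4 and 50.8% in CD8 cells were higher in Tcm than in Tem cells in all 4 libraries (median log2 ratio 0.55 and 0.38). The Tcm cell had more UMIs of the 9 genes together in 80.9% to 88.9% of pairs in CD4 cells and 67.1% to 76.7% in CD8 cells over the 4 libraries. With the 7 members not used for naming the ranges were 80.6% to 87.0% and 68.8% to 76.6%. These totals add UMIs, so abundant members weigh most. Before thinning, Bach2 and Satb1 had means of 1183 and 908 plain CPM in WT CD4 Tcm cells. Tcf7, Id3, and Klf2 had means of 52.2, 35.6, and 11.8 there. Bach2 alone gave 76.0% to 83.4% and Satb1 alone 72.2% to 79.7% in CD4 cells, whereas the naming members gave 61.9% to 73.9% (Ccr7) and 46.6% to 53.9% (Tcf7). Id3 alone gave 42.4% to 47.1% and Klf2 alone 44.9% to 49.1% in CD4 cells. The mitochondrial percentage gave 95.9% to 98.6% in CD4 and 94.8% to 96.5% in CD8 cells, and so separated the labels more fully than the 9 genes did. Few of these Tcm cells had under 10% mitochondrial UMIs. Over the 4 libraries they were 218 in CD4 and 123 in CD8 cells, against 2555 and 909 Tem cells. Restricted to such cells, the 9 genes gave 90.8% to 96.7% and 79.4% to 92.6%, and the mitochondrial percentage 87.6% to 94.0% and 71.6% to 88.1%.

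Set against unstimulated Naive cells of the same class and genotype, stimulated cells of both labels kept only a few percent of the egress genes. In Tcm cells S1pr1 stood at 2.23% to 3.41% and Klf2 at 1.24% to 3.70% of the Naive level over the 4 combinations of class and genotype, and in Tem cells at 1.02% to 1.57% and 1.04% to 6.16%. Tcf7 stood at 15.4% to 32.3% in Tcm and 16.5% to 29.6% in Tem cells, again alike. Bach2 (136% to 340%), Satb1 (127% to 277%), and Ccr7 (113% to 372%) stood above the Naive level in Tcm cells. Id3 was at 15.6% to 44.7% in Tcm and 39.4% to 120% in Tem cells. These ratios join libraries clustered separately and carry no test. A single stimulated cluster stood apart from the others. In Tem7 of the CD4 class (63 cells of WT and 196 of SDHA-KO), named here after its values were seen, S1pr1 stood at 41.2 ± 9.15 plain CPM in WT and 30.3 ± 6.61 in SDHA-KO (mean ± SD, n = 2 libraries), and Klf2 at 37.3 ± 16.1 and 106 ± 36.5. Foxp3, the defining factor of Treg cells, stood at 27.1 ± 15.8 and 25.5 ± 1.11 there, against 169 and 221 in unstimulated Treg cells of WT and SDHA-KO. Tcf7 stood at 39.5 ± 8.07 and 48.1 ± 2.79, and in WT it was lower still in Tcm2 (37.5). Id3, which was high in unstimulated Treg cells, was lower in Tem7 (23.8 and 15.9) than in any other CD4 Tem cluster compared. Bach2, which unstimulated Treg cells kept, was lowest among SDHA-KO CD4 Tem clusters in Tem7 (276).

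Partner genes under SDHA loss in stimulated cells were called in both directions in CD4 cells, where 22.7% of all genes were higher and 20.5% lower. In the CD8 class these shares were 26.8% and 23.5%, and the part of the γδ T cell markers that moved with SDHA loss there was not tested beyond the choice by coreceptor UMIs. Of 22 quiescence partners 5 were higher and 8 lower in SDHA-KO CD4 cells (median -0.14, against -0.00094 over all genes), led by Il7r, the receptor of the survival cytokine IL-7 (1.36 ± 0.17), and Pik3ip1, an inhibitor of PI3K (-1.38 ± 0.10). In the CD8 class 2 were higher and 14 lower (median -0.45), with Pik3ip1 again the largest fall (-1.90 ± 0.15) and Slfn2 the largest rise (1.15 ± 0.14). Of the 10 egress and homing genes tested, 3 were higher and 3 lower in CD4 cells, with Itga4, which encodes an integrin subunit, rising from 37.8 ± 1.34 to 61.0 ± 10.7 CPM (0.69 ± 0.13) and Cxcr4, the receptor of CXCL12, falling (-1.54 ± 0.31, from 6.32 ± 0.153 to 2.21 ± 1.25 CPM). Cxcr4 also fell in the CD8 class (-3.23 ± 0.30), where 2 of the 10 were higher and 2 lower. Of the 15 TCF/LEF and E protein partners 3 were higher and 3 lower in CD4 and 3 and 6 in CD8 cells, with Tle5, a member of the Groucho/TLE family, the largest rise in CD4 cells (1.03 ± 0.084). Of the effector counterparts 5 of 15 were higher and 1 lower in CD4 cells, and 7 of 14 tested were higher and 1 lower in CD8 cells. Batf, a factor of effector differentiation, rose most in CD4 cells (1.10 ± 0.17), and Havcr2, which encodes the inhibitory receptor TIM-3, in CD8 cells (2.99 ± 0.25). In cells chosen by coreceptor UMIs 6 and 8 of the quiescence partners, 0 and 3 of the egress and homing genes, 2 and 7 of the TCF/LEF and E protein partners, and 7 and 0 of the effector counterparts were higher and lower in CD8 cells. The quiescence partners thus had more members called higher and fewer called lower than in the CD8 class, and their median was -0.15. In CD4 cells chosen in the same way the counts were 5 and 10, 2 and 3, 3 and 3, and 3 and 1 in the same order.

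Finally, likeness of pattern was measured as Pearson's r of log2 CPM over the 16 sums (2 classes in 8 libraries), centered within unstimulated and within stimulated sums so that the shared change with stimulation is removed. The sums share libraries and depth, and r is a description over 5719 genes with at least 20 CPM. Among the members, Tcf7 was most like Klf2 (r = 0.95) and then Bach2 (0.92), while Id3 and Satb1 were unrelated (-0.064). Outside the members, the genes most like Tcf7 were 2310001H17Rik (0.97) and Aff3 (0.96), those most like Klf2 were Gm26740 (0.96) and Grcc10 (0.96), and those most like Bach2 were Itm2a (0.97) and Ifi27l2a (0.96). Lef1 was most like Sntb1 (0.98) and Inpp1 (0.96), Ccr7 like Mrtfa (0.95) and Pacsin1 (0.95), and Foxo1 like Atl3 (0.94) and Pacs1 (0.93). Satb1 was most like Rbl2 (0.95) and Crybg1 (0.93), Id3 like Max (0.91) and Cd274 (0.90), and S1pr1, with the weakest likeness, like Cep95 (0.86) and St8sia4 (0.84).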

How the data were processed

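Spleen T cell libraries of 4 groups (2 each, labelled replicates 1 and 2) were made with the 10x 3′ HT v3.1 kit. The submitters' processing notes name bcl2fastq, Cell Ranger, and mm10. The deposited matrix holds raw UMI counts, and the authors' cell table, made with Seurat, holds the subset label, the CD4 or CD8 class, a log10 value of the CD4 to CD8 ratio, and the percent of mitochondrial UMIs. The log10 value was not used. The percent deposited was recomputed from the 13 mitochondrial genes and matched in every cell within 0.001. The authors removed cells with many features and CD3-negative clusters, and whether doublets were removed otherwise is not given in the sources used here. No doublet caller was run here.

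UMIs were summed per library and class (10947009 to 51398728 UMIs per library) and fitted with edgeR 4.0.16 (R 4.3.3, limma 3.58.1), with filterByExpr (minimum count 10, total 15), TMM, and the quasi-likelihood test over all 4 groups (4 residual degrees of freedom). Genes were called at a Benjamini-Hochberg adjusted p under 0.05, and errors are SE of the log2 fold change. With 2 libraries a group an exact permutation test cannot go below p = 0.33. CD8 was compared with CD4 with the library as a block. Subsets needed 20 cells in each library. Tcm and Tem labels were compared without a test. DESeq2 1.42.0, other scalings, filters, thinned cells, omitted libraries, and a block on replicate number were alternatives. The steps were tested on simulated data. Further tools were Python 3.11.15, numpy 2.4.6, scipy 1.17.1, pandas 2.3.3, and matplotlib 3.10.9.

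The 9 members, partner lists, and tests were chosen with earlier results of these data known. Text names all members, the largest called rise and fall of each partner list, the naming genes where labels are compared, and the 2 genes most like each member, unless stated. A gene of the lists, and a comparison that rests on it, are not reported here and were left out of the list counts.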

Additional observations from a re-analysis of the deposited data

Results flagged for a closer look

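The effect of SDHA loss (log2 fold change of SDHA-KO over WT) differed between stimulated and unstimulated CD4 cells for 4 members by edgeR's test of the difference, being more positive after stimulation by 1.54 for Klf2, 0.86 for Tcf7, 0.73 for Satb1, and 0.57 for Bach2. In the CD8 class it differed for Foxo1 (-0.61), a value that was -0.16 and not called in cells chosen by coreceptor UMIs and under 10% mitochondrial UMIs. In stimulated cells chosen by coreceptor UMIs it differed between CD8 and CD4 cells for 6 members, with differences (CD8 minus CD4) of 1.18 for Id3, -0.79 for Klf2, -0.60 for Satb1, -0.58 for Foxo1, -0.40 for Tcf7, and -0.28 for Ccr7. Without stimulated SDHA-KO replicate 1 the difference was 0.87 for Id3, -0.44 for Klf2, -0.20 for Tcf7, and -0.26 for Ccr7. Of these only Id3 was then called. Each was picked out because an effect under the same contrast differed between states or lineages. With 2 libraries in each group, single libraries were not examined as outliers.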

How the results depend on the processing

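Single values of the 9 members in the comparisons of groups kept their direction and side of the threshold in 1597 repeats under other settings, while 58 became called, 28 were no longer called, and 9 turned. In comparisons of CD8 with CD4 cells the numbers were 589, 17, 39, and 2, and in joined labels 573, 26, 37, and 1. Joined labels, and coreceptor UMIs together with under 10% mitochondrial UMIs, were chosen after seeing the data. The values that turned were, in the CD8 class under SDHA loss after stimulation, Ccr7 (0.083 by coreceptor UMIs and 0.19 with under 10% mitochondrial UMIs as well) and Klf2 (0.93 and 0.72). In stimulated against unstimulated SDHA-KO CD8 cells they were Ccr7 (0.50 and 0.52) and Bach2 (0.28 and 0.30) under the same conditions, and in WT CD8 cells Satb1 (0.035 with library size only). With the authors' class in place of coreceptor UMIs the difference between lineages in stimulated cells was -0.28 for Lef1 and -0.53 for Bach2, and in joined CD8 Tcm cells under 10% mitochondrial UMIs Id3 was 0.38. The cause was not tested for any of these.

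Counts of members called moved by over 1.5 times as follows, and the cause was not tested. Under SDHA loss in unstimulated CD4 cells 1 was called with DESeq2 or without a filter, and in unstimulated CD8 cells 1 with DESeq2, thinned cells, no filter, or only the groups compared. Under SDHA loss in stimulated CD8 cells 6 were called by coreceptor UMIs, 5 under 10% mitochondrial UMIs, and 5 with both. The difference between states in CD8 cells gave 5 by coreceptor UMIs and 2 each with thinned cells, under 10% mitochondrial UMIs, both conditions, or library size only. With thinned cells CD8 against CD4 gave 5 in stimulated SDHA-KO and 5 in unstimulated WT, and the difference of the effect 2. Within clusters, 24 pairs were called in the 4 stimulated CD4 clusters left under 10% mitochondrial UMIs and 6 in the 1 CD8 cluster left, 8 in stimulated CD8 clusters with DESeq2, and 2 in unstimulated CD8 clusters with DESeq2 or thinned cells.

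With 1 library left out (the lone library of its group is then assumed to vary like the others), members called ranged from 7 to 8 (WT CD4), 7 to 9 (WT CD8), 7 to 8 (SDHA-KO CD4), and 6 to 8 (SDHA-KO CD8) for stimulation. For SDHA loss they ranged from 0 to 0 (CD4) and 0 to 1 (CD8) unstimulated, 5 to 6 and 3 to 5 stimulated, and 2 to 5 and 1 to 3 for the difference between states. CD8 against CD4 gave 1 to 4 (WT) and 1 to 5 (SDHA-KO) unstimulated, 4 to 6 and 7 to 8 stimulated, and 3 to 6 and 0 to 0 for the difference of the effect stimulated and unstimulated. Members higher in Tcm ranged from 6 to 6 and 6 to 7, and pairs within clusters 28 to 35 and 10 to 20 stimulated and 1 to 7 and 2 to 6 unstimulated.

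Libraries with the same replicate number did not deviate together (correlations of -0.16 to 0.04 between groups). With the replicate number as a block, 6 members were called in stimulated CD4 and 3 in stimulated CD8 cells under SDHA loss, 0 and 0 unstimulated, 7 and 8 for stimulation in WT, 8 and 7 in SDHA-KO, and 4 and 1 for the difference between states, and 90 of 90 single values of members kept their side. In joined labels the block left 78 as they were, added 1 call, and removed 2, and within clusters it called 38, 16, 5, and 4 pairs (stimulated CD4, stimulated CD8, unstimulated CD4, and unstimulated CD8). Depth limits S1pr1 after stimulation, where a library held as few as 38 UMIs of S1pr1 in a class.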
